A study of Bos taurus with 24 samples.

Results

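The genes described here are 10 genes of glucose phosphorylation and glycolysis, HKDC1, HK1, HK2, GPI, PFKP, ALDOA, ALDOC, PGK1, ENO1 and LDHA, followed through 24 single bovine early blastocysts. They were chosen by gene symbol, and 9 of the 10 were found among the 24621 genes of the count table. ENO1 had no entry under that symbol and was not analysed here. HKDC1 was chosen because its counts were near 0 in embryos produced with serum, so its values in serum are given as a description and carry no test. The other members were chosen with earlier results of these data known.

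Glycolysis splits glucose into pyruvate and yields ATP without oxygen. Hexokinases trap glucose in the cell as glucose 6-phosphate, the later enzymes carry it to pyruvate, and lactate dehydrogenase converts pyruvate to lactate while it regenerates NAD+. Cattle embryos rely mainly on pyruvate and lactate before compaction and take up more glucose as the blastocyst forms, when the trophectoderm, the outer layer that gives rise to the placenta, pumps fluid into the cavity.

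Each sample was 1 early blastocyst of Holstein cattle, of the best morphological quality, and all were sired by the same bull. In vivo derived embryos were flushed from superovulated cows (8 embryos, 5 male and 3 female). There were fewer cows than embryos, so some embryos shared a dam, and which embryo came from which cow is not given. P-values treat the embryos as independent and may therefore be too small. Embryos of the serum condition (8 embryos, 3 male and 5 female) came from slaughterhouse oocytes that were matured with 20% fetal bovine serum and cultured in synthetic oviduct fluid with 5% serum. Embryos of the serum-free condition (8 embryos, 5 male and 3 female) came from oocytes matured with epidermal growth factor and were cultured with bovine serum albumin, insulin, transferrin and selenium. Both in vitro groups were kept under 5% oxygen and collected between day 6 and 7 after insemination. They came from fewer in vitro experiments than there were embryos, so some embryos within each group shared an experiment. Which embryo came from which experiment is not given, and this too may make p-values too small. The maturation medium with serum also held added glutamine and pyruvate, so that these additions and serum cannot be told apart. Whole embryos were sequenced, so fewer cells of a type and less RNA per cell cannot be told apart.

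Exon counts per embryo summed to between 3253051 and 9000447, with a median of 4454031, and between 11735 and 14732 genes had a count. Levels are given as CPM, counts set to a common library size and scaled by TMM over the 24 embryos, and are compared only within a gene. Differences carry their standard error (SE). When the embryos were clustered on 7485 genes outside the lists used here, 5 serum embryos stood apart from the other 19, with median rank correlations to other embryos between 0.701 and 0.879 against 0.874 to 0.920 in the rest. They were the 3 male embryos B1, B5 and B7 and the females B2 and B3, so the 3 serum embryos left, B4, B6 and B8, were all female. Results in serum are therefore given with and without them.

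The labelled tissue was checked on marker genes. The 8 trophectoderm markers summed to between 7605 and 14888 CPM in in vivo derived embryos, between 334 and 5208 CPM in serum and between 5049 and 28786 CPM in serum-free embryos, so that no serum embryo reached the in vivo range. Of the 6 trophectoderm markers tested, KRT8, KRT18, GATA2 and GATA3 were lower in serum, beside 7.34% of all genes tested. In serum-free embryos 0 of 6 differed by edgeR's quasi-likelihood test, beside 2.2% of all genes in either direction. In males alone 1 of 6 was higher in serum and 3 were lower, beside 5.31% and 8.03% of all genes. CDX2, the factor that defines the trophectoderm, was low in every group, with a mean of 1.27 CPM in vivo, 0.525 CPM in serum and 0.764 CPM in serum-free embryos. Of the inner cell mass markers 1 of 5 tested, SOX2, was higher in serum, beside 6.43% of all genes, and 0 of 6 differed in serum-free embryos. Of the hypoblast markers 1 of 2, PDGFRA, was lower in both, beside 7.34% of all genes in serum and 0.588% in serum-free embryos. The cumulus and granulosa list summed to at most 49.9 CPM, the blood cell list to at most 13.0 CPM and the oocyte list to at most 177 CPM. In the comparisons over both sexes CYP19A1, which encodes aromatase, was the tested gene of these lists and was not called. As 1 tested gene of the cumulus and granulosa list, it does not tell which cells were present. In males alone CYP19A1 was lower in serum than in vivo, with a mean of 2.23 CPM against 14.0 CPM (log2 fold change -2.68, SE 0.82, adjusted p = 0.0395). The part of these markers in the results below was not tested.

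HKDC1 encodes a hexokinase domain-containing protein, a late-described member of the hexokinase family that can phosphorylate glucose. In in vivo derived embryos its level ran from 26.6 to 70.0 CPM with a median of 50.3 CPM, which rested on 150 to 312 counts per embryo. In serum embryos it ran from 0 to 7.65 CPM with a median of 0.428 CPM, and the 8 embryos together held 64 counts. In serum-free embryos it ran from 1.47 to 74.4 CPM with a median of 25.6 CPM. The serum embryos thus lay below every in vivo derived embryo, while the serum-free embryos spread over and below the in vivo range.

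The mean level of HKDC1 was 51.0 ± 12.9 CPM in vivo (SD, n = 8) and 1.49 ± 2.62 CPM in serum (SD, n = 8), a ratio of 34.3. Serum embryo B8 held 42 of the 64 serum counts, and without it the serum mean was 0.606 CPM and the ratio 84.2. No count was found in 4 of the 8 serum embryos (B2, B3, B5 and B7). There 3 counts, taken as an approximate upper limit for a count of 0, would correspond to between 0.346 and 0.936 CPM. Such limits cover counting error only. The 3 serum embryos that clustered with the rest held 1.09, 2.30 and 7.65 CPM, and these too were below the lowest in vivo value. The 5 that stood apart held at most 0.856 CPM.

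**Figure D1:**
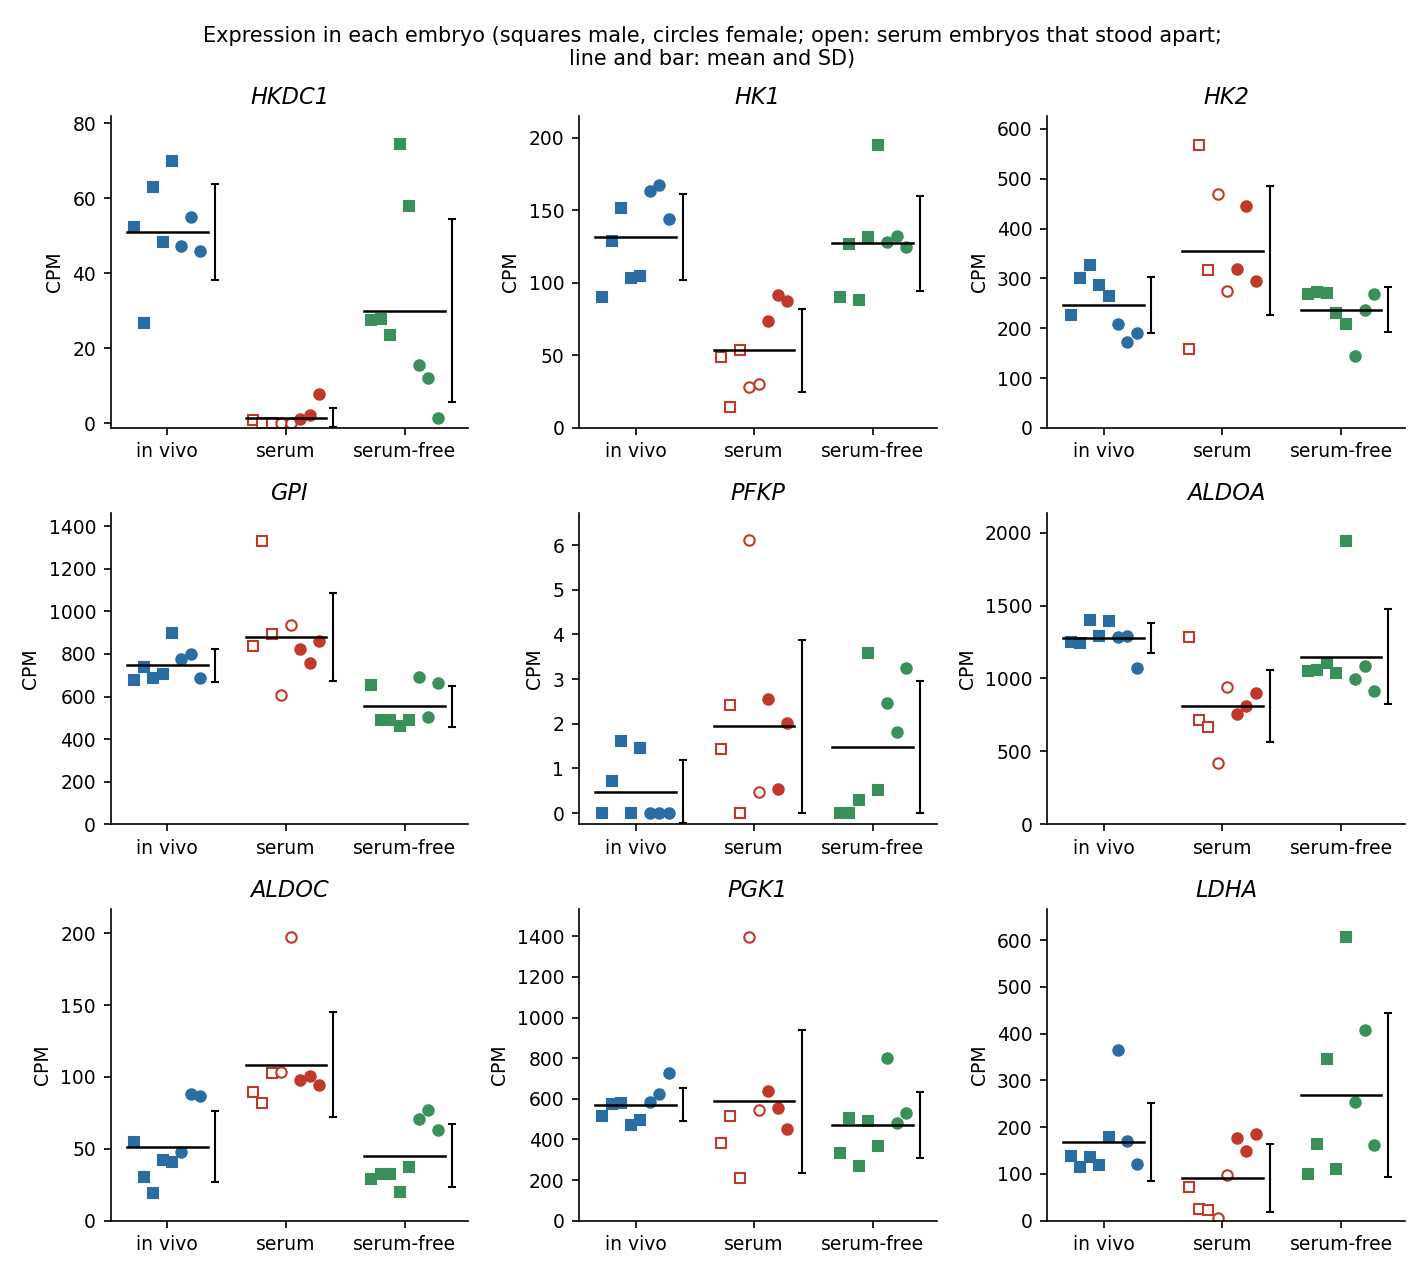
Level of each member in every embryo, in TMM-scaled CPM on the vertical axis, by condition on the horizontal axis. Squares are male and circles female embryos, open symbols are the 5 serum embryos that stood apart, and the line and bar give the mean and SD of 8 embryos. HKDC1 lay at or below 7.65 CPM in every serum embryo, while HK2 in the same embryos lay between 158 and 569 CPM.

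In the serum-free condition, where HKDC1 had not been chosen for its level, the mean was 30.0 ± 24.4 CPM (SD, n = 8). Of these 8 embryos, 4 lay below the in vivo range, 3 within it and 1 above it. The log2 fold change against in vivo derived embryos was -0.77 with an SE of 0.42, which did not pass the test (adjusted p = 0.297). HKDC1 entered this test through the in vivo embryos alone, as serum-free embryo C10 held 5 counts.

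In serum-free medium the sexes separated. The 5 male serum-free embryos held 27.6, 27.8, 23.5, 74.4 and 58.0 CPM of HKDC1, and the 3 females held 15.4, 12.0 and 1.47 CPM. All males were above all females, and 6.77% of the 7918 genes tested in this comparison had sexes that did not overlap in either direction. In vivo the sexes overlapped, with 52.3, 26.6, 62.9, 48.4 and 70.0 CPM in males and 47.1, 54.9 and 45.8 CPM in females.

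By edgeR's quasi-likelihood test the log2 difference of male over female serum-free embryos was 2.11 with an SE of 0.63 and did not pass over all genes (adjusted p = 0.37), whereas DESeq2 called it (2.14, adjusted p = 0.0256). Female serum-free embryos lay 2.33 log2 units below female in vivo derived embryos (log2 fold change -2.33, SE 0.59), again without overlap, and again not called by the quasi-likelihood test (adjusted p = 0.144) but called by edgeR's exact test (adjusted p = 0.0111) and by DESeq2 (adjusted p = 0.00244). With 3 females in each group, groups without overlap were common: 21% of the 8211 genes tested in this comparison had none. The filter asked for 15 counts in every embryo of a group, and serum-free female C10 held 5 counts of HKDC1. HKDC1 thus entered both tests only through the group where it was high, so these calls are given as a description. The male change in serum-free medium was -0.28 with an SE of 0.34 (adjusted p = 0.716). The difference between the male and female changes, tested as an interaction, was 2.04 with an SE of 0.69 (unadjusted p = 0.00801, adjusted p = 0.677), so it did not pass over all genes.

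HK1 is the broadly expressed hexokinase that binds the outer mitochondrial membrane. Its level ran from 90.1 to 167 CPM with a median of 136 CPM in vivo, from 14.6 to 91.8 CPM with a median of 51.5 CPM in serum, and from 88.4 to 195 CPM with a median of 127 CPM in serum-free embryos. In serum, 7 of 8 embryos were below the lowest in vivo value, and 6 of 8 serum-free embryos were within the in vivo range.

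HK1 was lower in serum, with a log2 fold change of -1.30 against in vivo (SE 0.30, adjusted p = 0.00431) and of -1.25 against serum-free embryos (SE 0.31, adjusted p = 0.0136). A gene is called here at an adjusted p under 0.05 in edgeR's quasi-likelihood test together with a fold change of at least 2. Without the 5 serum embryos that stood apart the difference from in vivo was -0.65 (adjusted p = 0.0408), below the fold minimum, and that from serum-free embryos was -0.60 (adjusted p = 0.249). The embryos that stood apart held 14.6 to 54.0 CPM of HK1 and the other serum embryos 73.6 to 91.8 CPM. In serum-free against in vivo derived embryos HK1 gave -0.050 with an SE of 0.16 (adjusted p = 0.898).

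HKDC1 and HK1 are neighbours whose annotated spans overlap in the RefSeq annotation of the later assembly ARS-UCD2.0. These spans include introns, and whether exons of both genes overlap in the build used for mapping was not checked. Only exon reads were counted, and the labels and methods name no strand-specific library or counting. Whether any reads were shared between the genes was not tested.

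HK2 is the insulin-responsive hexokinase that is typical of growing and glycolytic cells. It ran from 173 to 327 CPM with a median of 245 CPM in vivo, from 158 to 569 CPM with a median of 318 CPM in serum, and from 144 to 272 CPM with a median of 252 CPM in serum-free embryos. Of the serum embryos 3 were above the in vivo range, 4 within it and 1 below it. The log2 fold change in serum was 0.52 with an SE of 0.21 and did not pass (adjusted p = 0.0739), and against serum-free embryos it was 0.57 with an SE of 0.21 (adjusted p = 0.0693).

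In female embryos alone HK2 held 469, 275, 320, 445 and 294 CPM in serum against 208, 173 and 191 CPM in vivo. The groups did not overlap, as for 22.8% of the 8138 genes tested in this comparison, and the log2 fold change of 0.94 (SE 0.24) did not pass (adjusted p = 0.101). In vivo, males held 226 to 327 CPM, above all females, as 9.88% of the 7963 genes tested had sexes without overlap in either direction, and the log2 difference of 0.56 did not pass (SE 0.15, adjusted p = 0.0894). Across the 24 embryos the rank correlation of HKDC1 with HK1 was 0.76 and with HK2 -0.44, which describes embryos of 3 conditions that share their scaling and is not a test. Of the other genes in the hexokinase list, HK3 reached at most 3.91 CPM in any embryo and was not tested. ADPGK, which uses ADP in place of ATP, was not called by the quasi-likelihood test in any comparison. Over both sexes it was tested only where serum-free embryos entered, through their counts alone (log2 fold change 0.72 against in vivo, adjusted p = 0.444).

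Glucose-6-phosphate isomerase, GPI, turns glucose 6-phosphate into fructose 6-phosphate. It ran from 677 to 899 CPM with a median of 723 CPM in vivo, from 607 to 1331 CPM with a median of 851 CPM in serum and from 462 to 691 CPM with a median of 496 CPM in serum-free embryos. In the serum-free condition 7 of 8 embryos were below the in vivo range, and in serum 5 of 8 were within it.

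GPI differed by 0.43 on the log2 scale between serum-free and in vivo derived embryos (log2 fold change -0.43, SE 0.11, adjusted p = 0.0277), which is under the fold minimum and was not called, and 5.82% of all genes tested passed the adjusted p at any fold. The adjusted p ran from 0.00934 to 0.106 over the other settings of the test and from 0.0177 to 0.0611 over the single embryos left out, so that it rested on the setting. Against serum-free embryos, serum embryos were 0.66 log2 units higher (SE 0.15, adjusted p = 0.0112), where 16.3% of all genes passed the adjusted p at any fold, and against in vivo they were 0.24 higher (SE 0.14), which did not pass (adjusted p = 0.196). All 5 male serum-free embryos were below all 5 male in vivo derived embryos, which 5.39% of the genes tested in males shared in either direction, although the sex-specific fit did not pass (log2 fold change -0.50, adjusted p = 0.0763).

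The next step, phosphofructokinase, commits sugar to glycolysis. PFKP, the platelet form, had between 0 and 25 counts per embryo and 0 counts in 5 of the 8 in vivo derived embryos, and it was not tested. Its highest level was 1.61 CPM in vivo, 6.11 CPM in serum and 3.58 CPM in serum-free embryos. The liver form PFKL was the only one of the 3 genes with counts enough for a test in the comparisons over both sexes. PFKL ran from 38.1 to 88.9 CPM with a median of 53.5 CPM in vivo, from 0 to 32.3 CPM with a median of 3.75 CPM in serum, and from 27.0 to 81.5 CPM with a median of 45.0 CPM in serum-free embryos.

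All 8 serum embryos were therefore below the in vivo range of PFKL, and 7.09% of the genes tested had no overlap in either direction. Its log2 fold change in serum was -2.35 with an SE of 0.75 (adjusted p = 0.0252), and in serum-free medium it was -0.33 with an SE of 0.22 (adjusted p = 0.429). PFKL entered the serum test only through the in vivo embryos (167 to 389 counts), as serum counts ran from 0 to 177.

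Both aldolases split fructose 1,6-bisphosphate, and they moved in opposite directions in serum. ALDOA, the muscle and general form, ran from 1071 to 1401 CPM with a median of 1290 CPM in vivo, from 419 to 1282 CPM with a median of 782 CPM in serum and from 915 to 1943 CPM with a median of 1053 CPM in serum-free embryos. ALDOC, the brain form, ran from 19.2 to 87.8 CPM with a median of 45.1 CPM in vivo, from 81.7 to 197 CPM with a median of 99.3 CPM in serum and from 19.7 to 77.0 CPM with a median of 35.0 CPM in serum-free embryos. In serum, 7 of 8 embryos were below the in vivo range of ALDOA and 7 of 8 were above that of ALDOC.

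ALDOA fell by 0.66 on the log2 scale in serum against in vivo (SE 0.17, adjusted p = 0.00666), less than the fold minimum but within the 28.3% of all genes that passed at any fold, and the value without the 5 embryos that stood apart was -0.64 (adjusted p = 0.00114). ALDOC rose by 1.08 (SE 0.27, adjusted p = 0.00743) against in vivo and by 1.25 (SE 0.28, adjusted p = 0.00901) against serum-free embryos, and every serum embryo was above every serum-free one, as for 2.37% of the genes tested with no overlap in either direction. The ALDOC difference against in vivo fell under the fold minimum with sex as a covariate (0.97, adjusted p = 0.00582), and it fell under it without in vivo embryo A2, in vivo embryo A3 or serum embryo B3. Leaving out single embryos gave 0.89 to 1.26. Without the 5 embryos that stood apart it was 0.92 (adjusted p = 0.0827), although the 3 other serum embryos, at 94.6 to 100.3 CPM, were all above the in vivo range, and against serum-free embryos it was 1.11 (adjusted p = 0.162).

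ALDOC also differed in level between the sexes. The 5 male serum-free embryos held 29.2, 32.6, 32.3, 19.7 and 37.4 CPM and the 3 females 70.8, 77.0 and 63.1 CPM, so all females were above all males, as for the 6.77% of genes given above. The male over female log2 difference was -1.21 with an SE of 0.27 and was not called by the quasi-likelihood test (adjusted p = 0.159), but was by edgeR's exact test (adjusted p = 0.0201) and by DESeq2 (adjusted p = 0.00886). In vivo, 4 of 5 males were below all females (log2 difference -0.99, SE 0.31, adjusted p = 0.166).

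**Figure D2:**
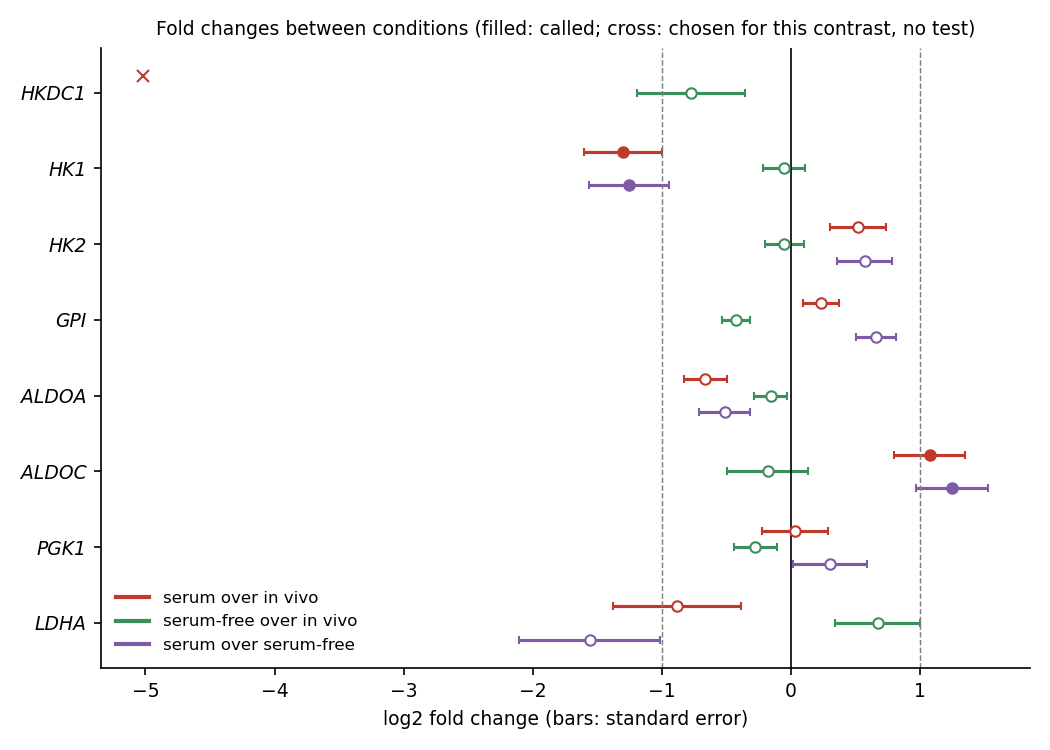
Log2 fold change of each tested member between conditions on the horizontal axis, with its standard error (SE) as a bar, for serum over in vivo, serum-free over in vivo and serum over serum-free (8 embryos each). Filled points are called, dashed lines mark a fold of 2, and the cross is HKDC1 in serum, which was chosen for that value and has no test. HK1 at -1.30 and ALDOC at 1.08 are the called members of serum over in vivo.

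Phosphoglycerate kinase, PGK1, makes the first ATP of the pathway and lies on the X chromosome. It ran from 472 to 726 CPM with a median of 576 CPM in vivo, from 212 to 1394 CPM with a median of 530 CPM in serum and from 269 to 800 CPM with a median of 485 CPM in serum-free embryos. The 3 groups overlapped widely, and serum embryos spread the most (SD 351 CPM against 80.4 CPM in vivo). The log2 fold change was 0.036 (SE 0.26, adjusted p = 0.932) in serum, a value whose sign depended on serum embryo B2, and -0.27 (SE 0.17, adjusted p = 0.357) in serum-free medium.

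Between the sexes PGK1 was lower in males by the point estimate in each condition, at -0.29 in vivo (adjusted p = 0.319), -0.96 in serum (adjusted p = 0.768) and -0.60 in serum-free medium (adjusted p = 0.573), and none of the 3 passed. In vivo all 5 males, at 472 to 579 CPM, were below all 3 females, at 586, 622 and 726 CPM, and 9.88% of the 7963 genes tested in this comparison had sexes that did not overlap.

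LDHA encodes the lactate dehydrogenase subunit that favours the making of lactate, and LDHB the subunit that favours its use. LDHA ran from 115 to 365 CPM with a median of 137 CPM in vivo, from 5.62 to 186 CPM with a median of 84.0 CPM in serum and from 99.5 to 606 CPM with a median of 210 CPM in serum-free embryos. Of the serum embryos 5 were below the in vivo range, and they were the 5 that stood apart, at 5.62 to 96.9 CPM, while the other 3 held 149 to 186 CPM.

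Over both sexes LDHA did not pass in serum against in vivo (log2 fold change -0.88, SE 0.50, adjusted p = 0.188), and without the 5 embryos that stood apart the value was 0.019. With sex as a covariate it was -1.32 (adjusted p = 0.0499). Against serum-free embryos it was -1.56 (SE 0.55, adjusted p = 0.0568), a value that 5 of 9 other settings of the test put past the threshold, as did leaving out serum embryo B4 or B8 (adjusted p down to 0.037 over the single embryos left out), and it was -0.66 (adjusted p = 0.555) without the 5 that stood apart.

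In male embryos LDHA was called: the 3 serum males held 71.0, 24.3 and 21.8 CPM against 138, 115, 135, 119 and 180 CPM in the 5 in vivo males, a log2 fold change of -1.81 (SE 0.39, adjusted p = 0.00887). Leaving out single embryos gave -2.62, without serum embryo B1, to -1.53, with adjusted p at most 0.0357. In females it was -0.81 with an SE of 0.76 (adjusted p = 0.562), or -0.23 without in vivo embryo A6, and the difference between the sexes was -0.97 with an SE of 0.94 (adjusted p = 0.998). All 3 serum males stood apart in the clustering, so that sex and standing apart cannot be told apart among them. In serum-free medium the LDHA change was 0.67 with an SE of 0.33 (adjusted p = 0.238).

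LDHB fell in serum by 0.64 on the log2 scale (SE 0.18, adjusted p = 0.012), under the fold minimum, from a median of 963 CPM in vivo to 698 CPM. The share of LDHA among the counts of both subunits ran from 9.05% to 24.9% in vivo, from 1.16% to 22.5% in serum and from 7.49% to 33.7% in serum-free embryos. The log2 ratio of LDHA to LDHB averaged -2.65 ± 0.53 in vivo, -3.42 ± 1.47 in serum and -2.36 ± 1.06 in serum-free embryos (SD, n = 8 each). None of the 3 differences between conditions passed an exact two-sided permutation test (serum against in vivo -0.76, p = 0.194, adjusted p = 0.292, serum-free against in vivo 0.29, p = 0.486, serum against serum-free -1.06, p = 0.119, adjusted p = 0.292). Without the 5 serum embryos that stood apart the difference of serum from in vivo was 0.54, of the opposite sign.

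**Figure D3:**
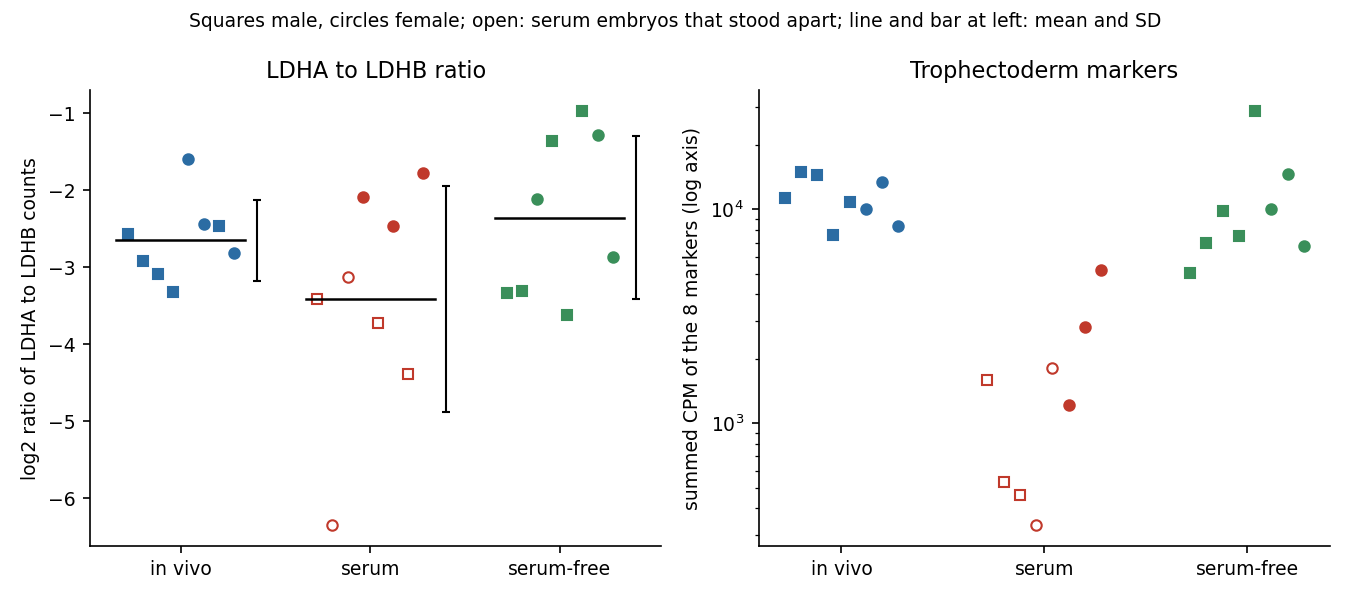
Left, log2 ratio of LDHA to LDHB counts in each embryo, with the mean and SD of 8 embryos. Right, summed CPM of the 8 trophectoderm markers on a log axis. Squares are male and circles female, and the open symbols, the 5 serum embryos that stood apart, held between 334 and 1814 CPM of these markers against 1221 to 5208 CPM in the other 3 serum embryos.

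Counted together, 2 of the 7 members tested in serum against in vivo were called, HK1 lower and ALDOC higher, where 13.8% of the 7339 genes tested were called, 6.43% higher and 7.34% lower. A median log2 fold change of 0.036 over these members stood beside 0.015 over all genes tested. In serum against serum-free embryos 2 of 7 were called, HK1 and ALDOC again, against 8.91% of 7181 genes (3.55% higher and 5.36% lower), with a member median of 0.31 beside 0.018. In serum-free against in vivo derived embryos 0 of 8 were called by the quasi-likelihood test, edgeR's exact test and DESeq2, against 2.2% of 7314 genes by the first, and 1 member, GPI, had an unadjusted p under 0.05, as had 21.5% of all genes tested. The 2 comparisons with in vivo derived embryos share those embryos. PFKP was left out of all these counts for want of counts, and HKDC1 out of those that involve serum.

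Within males 3 of 7 members were called in serum (HK1 and LDHA lower, ALDOC higher) against 13.3% of 7762 genes, 5.31% higher and 8.03% lower, and the serum and in vivo males did not overlap for any of the 3, as for 26.1% of all genes. CYP19A1, the aromatase gene given above as a description, was lower in the same serum males, and its part in these calls was not tested. Without serum embryo B7 the male ALDOC call was lost. Within females 0 of 7 were called in serum by the quasi-likelihood test, which called 0.418% of 8138 genes there, 3 had an unadjusted p under 0.05 (21.1% of all genes), and edgeR's exact test and DESeq2 each called 1, HK1. HK1 held 28.1, 30.1, 73.6, 91.8 and 87.1 CPM in the 5 female serum embryos and 163, 167 and 144 CPM in the 3 females in vivo, without overlap, as for 22.8% of the 8138 genes tested, and it did not pass (log2 fold change -1.33, SE 0.41, adjusted p = 0.13). In serum-free medium 0 of 8 members were called in either sex by the quasi-likelihood test, against 0.966% of genes in males and 0.304% in females, with 3 and 1 members at an unadjusted p under 0.05, where the shares of all genes were 18% and 14%. DESeq2 and the exact test called 0 in males and 1, HKDC1, in females. HKDC1 entered the female test only through the in vivo embryos, so its values there are a description.

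Between males and females the quasi-likelihood test called 0 of 8 members in vivo, 0 of 7 in serum and 0 of 8 in serum-free medium, against 0.653%, 0.173% and 0.139% of genes. At an unadjusted p under 0.05 there were 5, 1 and 3 members, where the shares of all genes were 13.5%, 6.24% and 8.01%. The 5 in vivo were HK1, ALDOC, PGK1 and LDHA, with lower point estimates in males, and HK2, with a higher one, and none passed after adjustment. The LDHA difference of -0.67 became -0.088 without in vivo embryo A6 (adjusted p = 0.929). The exact test called 0, 0 and 1 of these members and DESeq2 0, 0 and 2. ALDOC was called by both and HKDC1 by DESeq2 alone. HKDC1 entered that serum-free test only through the males, so its values there are a description. The interaction of sex with culture was called for 0 members in serum and 0 in serum-free medium by edgeR's quasi-likelihood test, the only test run for it, as for 0% of all genes, with 0 and 1 members at an unadjusted p under 0.05, where the shares of all genes were 5.16% and 6.59%.

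The rest of glucose metabolism was read from 10 lists of 91 genes, of which 86 were found and 48 tested in serum against in vivo. There 4 were called higher and 4 lower, 8 of 48 beside the 13.8% of all genes given above. Of the 4 lower, PFKL and H6PD entered the test only through the in vivo embryos, where they were high. In serum-free against in vivo derived embryos 2 of 49 were called higher, beside 1.61% of all genes, and 0 lower, beside 0.588%. No glucose transporter was called in either. SLC2A1 (GLUT1), the general transporter, ran from 389 to 530 CPM in vivo and from 130 to 513 CPM in serum, with a log2 fold change of -0.44 (adjusted p = 0.121), and in serum-free medium it rose by 0.42 (adjusted p = 0.0375), under the fold minimum. SLC2A3 (GLUT3), the high-affinity transporter, gave 0.13 (adjusted p = 0.724) in serum and 0.16 (adjusted p = 0.579) in serum-free medium.

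Among the other glycolytic enzymes PFKL alone was called of 5 tested in serum, where it entered only through the in vivo embryos, and 0 of 5 in serum-free medium. Pyruvate kinase, which forms pyruvate and ATP and is listed under its older symbol PKM2, ran from 560 to 1189 CPM in vivo, from 479 to 1063 CPM in serum and from 923 to 2896 CPM in serum-free embryos, with log2 fold changes of -0.28 (adjusted p = 0.247) and 0.50 (adjusted p = 0.171) against in vivo. Of the enzymes that set fructose 2,6-bisphosphate, the activator of phosphofructokinase, 0 of 2 tested were called in either condition.

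In the list of lactate and pyruvate exchange MPC1, a subunit of the mitochondrial pyruvate carrier, was called lower of 5 tested in serum. MPC1 ran from 273 to 480 CPM in vivo, from 26.4 to 306 CPM in serum and from 188 to 446 CPM in serum-free embryos, with a log2 fold change of -1.33 in serum (SE 0.34, adjusted p = 0.00785) and -0.39 in serum-free medium (adjusted p = 0.173). At an adjusted p under 0.05 with any fold, 4 of the 5 were lower in serum, beside 28.3% of all genes in either direction, and the median log2 fold change of the list was -0.71. Besides MPC1 and LDHB these were MPC2, the partner of MPC1 (-0.71, adjusted p = 0.0207), and BSG, the chaperone of the lactate transporters (-0.81, adjusted p = 0.000332), both named after their values were seen. In serum-free medium 0 of the 5 were called.

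**Figure D4:**
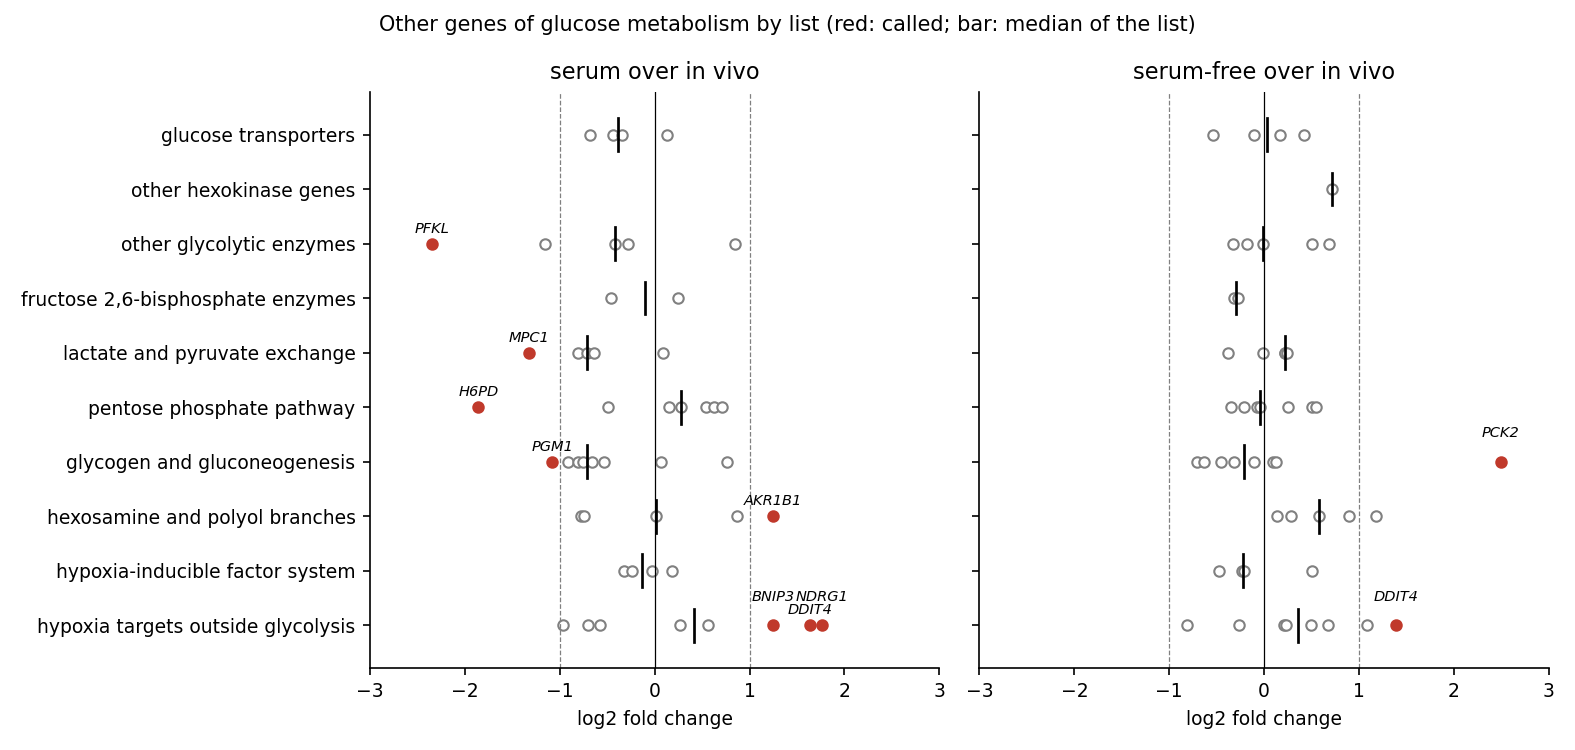
Log2 fold change of each tested gene of the 10 lists of glucose metabolism, 1 list a line, in serum over in vivo (left) and serum-free over in vivo (right). Red points are called and named, grey rings are not called, the bar is the median of the list and dashed lines mark a fold of 2. PFKL at -2.35 is the lowest point in serum and PCK2 at 2.49 the highest in serum-free medium.

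In the pentose phosphate pathway, which makes NADPH and ribose, 1 of 7 tested genes was called in serum: H6PD, the form in the endoplasmic reticulum, was lower (log2 fold change -1.86, SE 0.50, adjusted p = 0.00994), from 5.36 to 16.2 CPM in vivo to between 0 and 5.20 CPM in serum. No embryo of the serum condition reached the in vivo range of H6PD, and 7.09% of the genes tested had no overlap. H6PD too entered this test only through the in vivo embryos (22 to 67 counts), as serum counts ran from 0 to 45. In the list of glycogen and gluconeogenesis PGM1, which joins glucose 6-phosphate to glycogen, was lower in serum (-1.08, SE 0.18, adjusted p = 0.000559) and was the called gene of 8 tested, with 111 to 198 CPM in vivo against 48.7 to 118 CPM. In serum-free embryos PGM1 ran from 54.8 to 170 CPM and was not called. Over the other settings of the test it was -0.80 to -0.62 there (adjusted p from 0.0332 to 0.132), the same direction as in serum.

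PCK2, the mitochondrial phosphoenolpyruvate carboxykinase, was the called gene of that list in serum-free medium. PCK2 ran from 6.40 to 24.3 CPM in vivo, from 0 to 118 CPM in serum and from 43.5 to 139 CPM in serum-free embryos, so that every serum-free embryo was above every in vivo derived one, and 0.93% of the genes tested had no overlap in either direction. Its log2 fold change was 2.49 in serum-free medium (SE 0.29, adjusted p = 0.000191), and with 1 fit over all 24 embryos it was the same size with an adjusted p of 0.0512. In serum it was 0.76 (SE 0.74, adjusted p = 0.456), with a sign that depended on serum embryo B8.

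AKR1B1, aldose reductase, which opens the polyol branch, was the called gene of 5 tested in the list of side branches in serum (1.24, SE 0.28, adjusted p = 0.00355), at 215 to 520 CPM against 68.8 to 293 CPM in vivo. In serum-free embryos AKR1B1 ran from 142 to 692 CPM and was not called. Over the other settings of the test it was 0.88 to 0.91 there (adjusted p from 0.061 to 0.16), the same direction as in serum. None of the 4 tested genes of the hypoxia-inducible factor system was called in serum or in serum-free medium, and HIF1A, its oxygen-regulated subunit, gave 0.19 (adjusted p = 0.717) and 0.50 (adjusted p = 0.307). Of the 8 tested hypoxia targets outside glycolysis, 3 were higher in serum, beside 6.43% of all genes. These were BNIP3, a mitophagy receptor (1.25, adjusted p = 0.00279), NDRG1, a stress-response gene (1.77, adjusted p = 0.00356), and DDIT4, an inhibitor of mTOR (1.63, adjusted p = 0.000326). DDIT4 was also higher in serum-free medium (1.39, adjusted p = 0.004), at 35.8 to 203 CPM against 34.9 to 61.0 CPM in vivo.

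Without the 5 serum embryos that stood apart, PFKL (-1.10, adjusted p = 0.0116), H6PD (-1.99, adjusted p = 0.0266), AKR1B1 (1.18, adjusted p = 0.0393) and DDIT4 (2.03, adjusted p = 8.41e-05) were still called in serum against in vivo. As given above, with every serum embryo included PFKL and H6PD entered that test only through the in vivo embryos. MPC1 (-0.95, adjusted p = 0.00812), PGM1 (-0.91, adjusted p = 0.0115) and BNIP3 (0.91, adjusted p = 0.0486) fell under the fold minimum. NDRG1 (1.01, adjusted p = 0.0879) no longer passed, and PCK2 was then called higher (2.00, adjusted p = 0.00896). The PGM1 call was also lost without in vivo embryo A4 or serum embryo B2.

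Between serum and serum-free embryos 0 of the 49 list genes tested were called higher in serum, beside 3.55% of all genes, and 5 lower, beside 5.36%. Besides H6PD these were GNPNAT1, UAP1, SORD and P4HA2, named after their values were seen, with log2 fold changes of -1.17, -1.37, -1.04 and -2.07. H6PD entered this test only through the serum-free embryos (15 to 49 counts), as serum counts ran from 0 to 45.

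Across the 24 embryos the genes whose levels ranked most like HKDC1, among 7338 genes, were CCND2, a D-type cyclin (Spearman 0.918), the gene with the identifier ENSBTAG00000015314 (0.916), LRP2, an endocytic receptor (0.895), PTPRK, a receptor phosphatase (0.892), and LRBA (0.888). The mean of CCND2 was 257 CPM in vivo, 25.9 CPM in serum and 121 CPM in serum-free embryos. Most like HK2 were SPAG5, a spindle protein (0.804), ENSBTAG00000014215 (0.776), the splicing factor SRSF1 (0.765), RBM28 (0.763) and the cell-cycle kinase CDK1 (0.759). Most like LDHA were ZMYM3 (0.810), PPM1J (0.789), DDT (0.786), SLC25A5, the ADP and ATP exchanger of mitochondria (0.778), and S100A5 (0.764). These coefficients span 3 conditions and the embryos that stood apart, and they describe the order of the embryos only. Those of HKDC1 include the low serum values for which it was chosen.

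Among the members themselves HKDC1 ranked with ALDOA (Spearman 0.78 over the 24 embryos) and against ALDOC (-0.73), while PGK1 gave at most 0.25 in size with any other member. These coefficients too span the conditions, and those of HKDC1 include the low serum values for which it was chosen. They are a description and not a test.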

How the data were processed

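Exon read counts per gene were deposited by the authors for 24 single embryos. Per the methods, low-input cDNA libraries were read as pairs, trimmed and mapped to the UMD 3.1 bovine genome with CLC Genomics Workbench, and only reads mapped uniquely to exons were counted, without molecular identifiers. Sequencing lane, donor cow and culture run are not given per embryo, so no batch could be fitted.

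The members and lists were chosen with earlier results of these data known. Genes with at least 15 counts in every embryo of 1 group or the other were tested with edgeR 4.0.16 (R 4.3.3) by quasi-likelihood, with TMM scaling and Benjamini-Hochberg adjustment over all genes tested in that comparison, each comparison fitted on its own embryos. A call needed a change of 2-fold or more and an adjusted p below 0.05. The LDHA to LDHB ratio was tested by exact permutation (SciPy). Alternatives were edgeR's exact test, DESeq2 1.42.0, other scaling and filters, 1 fit over all embryos, sex as a covariate, a replicate block and leaving out single embryos. Leaving out the 5 serum embryos that stood apart was chosen after seeing the data. Single embryos were treated as the replicates, although some in vivo derived embryos shared a dam and some in vitro embryos shared an in vitro experiment. The scripts were tested on simulated counts.

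Named were all members, every called gene of the 10 lists in either comparison with in vivo derived embryos, LDHB, PKM2, SLC2A1, SLC2A3 and HIF1A, and the 5 genes ranked most like HKDC1, HK2 and LDHA. PKM was matched to its older symbol PKM2 after the table was seen. Gene symbols are those of the table, and no genome or sequence table of that build was used here. Some genes of the lists are not reported here.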

Additional observations from a re-analysis of the deposited data

Results flagged for a closer look

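In 8 of the 26 sets of 8 embryos (9 members in 3 conditions, without HKDC1 in serum) the highest or lowest embryo lay far from the rest by Dixon's criterion. Chance alone meets it in about 1 of 20 independent sets of normally distributed values. These sets share embryos, and CPM need not be normally distributed, so the 8 sets are not read as an excess. In serum these were GPI in embryo B5 (1331 CPM, the others at most 935 CPM), PFKP in B2 (6.11 CPM, 25 counts), ALDOC in B3 (197 CPM, the others at most 103 CPM) and PGK1 in B2 (1394 CPM, the others at most 639 CPM). B2, B3 and B5 are among the embryos that stood apart. In serum-free medium embryo C7 was far from the rest for both HK1 (195 CPM) and ALDOA (1943 CPM). In vivo, embryo A9 was low for ALDOA (1071 CPM) and A6 high for LDHA (365 CPM, the others at most 180 CPM). The source of these values was not tested.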

How the results depend on the processing

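Leaving out the 5 serum embryos that stood apart left 0 members called in serum against in vivo and 0 in serum against serum-free. It also reversed PGK1 (-0.061), LDHA (0.019), SLC2A1 (0.0095) and SLC2A3 (-0.036) in serum against in vivo, none of them called, and the LDHA to LDHB log2 ratio against in vivo (0.54) and serum-free embryos (0.25). It leaves 3 serum embryos, all female. In males alone the ratio in serum against in vivo was -0.97 (exact permutation p = 0.0357, not adjusted). That is the smallest p the test can give with 3 against 5 embryos, and all 3 serum males stood apart. Other reversals in serum against in vivo were PCK2 with DESeq2 (-0.32) and sex as a covariate (-0.13), and PGK1 with 15 counts in every embryo of both groups (-0.023) and sex as a covariate (-0.18); HK1 reversed between serum-free males and females with DESeq2 (0.00065). The causes were not tested.

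Embryo numbers did not pair the samples: same-numbered deviations correlated between -0.127 and 0.0881, none over 0.1. With a replicate block 1 member in place of 2 was called in serum against serum-free (HK1 -1.20, adjusted p = 0.0665), NDRG1 in serum (1.52, adjusted p = 0.0625) and DDIT4 in serum-free medium (1.11, adjusted p = 0.0714) no longer passed, and PGK1 (-0.079), PCK2 (-0.69), HIF1A (-0.024) and SLC2A3 (-0.10) reversed in serum against in vivo.

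In small sex groups the tools differed. In female serum embryos the exact test and DESeq2 each called 1 member where quasi-likelihood called 0 (467 and 585 genes against 34). In female serum-free embryos each called 1 (192 and 181 genes against 25), and in males against females in serum-free medium they called 1 and 2 (53 and 57 genes against 11). The female serum-free call and 1 of the 2 DESeq2 calls between the sexes were HKDC1, which entered only through the group where it was high. Male serum-free embryos had 199 and 201 genes against 74, and males against females 119 and 116 against 52 in vivo and 62 and 97 against 13 in serum.

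Leaving out each embryo in turn called 1 to 2 members in serum against in vivo (1 without A2, A3 or B3), 2 to 3 in serum against serum-free and 2 to 3 in males in serum. Its ranges crossed 0 only for differences that were not called. In serum against in vivo these were PGK1 (-0.25 to 0.19), PCK2 (-0.32 to 0.99) and SLC2A3 (-0.13 to 0.26), and in serum-free against in vivo HK1 (-0.15 to 0.021), HK2 (-0.098 to 0.048) and H6PD (-0.19 to 0.11). In males they were HK2 in serum (-0.23 to 0.61) and HK1 in serum-free medium (-0.075 to 0.26). In females they were PGK1 in serum (-0.23 to 0.29) and HK2 (-0.031 to 0.39), ALDOC (-0.31 to 0.066), PGK1 (-0.37 to 0.026) and LDHA (-0.084 to 0.91) in serum-free medium. Between males and females they were HKDC1 (-0.056 to 0.24) and GPI (-0.11 to 0.034) in vivo, HK2 (-0.62 to 0.26) and ALDOA (-0.19 to 0.38) in serum, and HK1 (-0.22 to 0.083) and LDHA (-0.60 to 0.37) in serum-free medium. The LDHA to LDHB ratio ran from -0.997 to -0.34, 0.097 to 0.48 and -1.29 to -0.64 in the 3 comparisons. Depth limits PFKP and the low serum counts of HKDC1.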
